A study of Mus musculus with 2 samples.

Results

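The ephrins and Eph receptors considered here were 10 genes listed by name: the ephrins Efna1, Efna5, Efnb1 and Efnb2, and the receptors Epha2, Epha4, Epha5, Ephb1, Ephb3 and Ephb4. They belong to the 20 genes of the family and to the 24071 genes that the count tables hold. The choice was made by name and not by a measured value, although earlier results of these data were known at the time. The list was followed across arterial, capillary and venous endothelial cells, mural cells (pericytes and smooth muscle cells) and subtypes of ependymal cells, whose cilia move fluid along the canal at the center of the cord.

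Ephrins are ligands that stay attached to the surface of the cell that makes them, ephrin-A proteins by a lipid anchor and ephrin-B proteins by a membrane-spanning segment. Eph receptors are receptor tyrosine kinases that bind ephrins on touching cells, EphA receptors mostly ephrin-A and EphB receptors mostly ephrin-B, and signals can run into both cells. In blood vessels ephrin-B2 is known as a mark of arteries and EphB4 as a mark of veins, and in the nervous system the family is known for guiding axons and keeping groups of cells apart.

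The cells came from spinal cords of adult C57BL/6j mice, 10 to 12 weeks old, that carried Cre in both copies of Clec9a and a Cre-dependent tdTomato reporter in both copies of Rosa26. Clec9a encodes DNGR-1, so a traced cell is red because it, or a cell it descends from, once expressed Clec9a, and a non-traced cell may still be one in which recombination failed. After myelin was depleted, live CD45- CD133+ cells were sorted by tdTomato into a CD133+ DNGR-1 traced and a CD133+ non-traced fraction, and each gave 1 droplet library of 3′ ends. All cells share genotype and handling, the number of animals pooled is not given in the sources used here, and with 1 library per fraction no difference has a replicate check and no p-value is given.

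The promoters of 4 members are shown because the results turn on them: Efnb2 and Ephb4 differed in opposite directions between arterial-like and venous-like cells, Efna5 was read in arterial-like and ependymal-like cells, and Epha5 was past 2-fold higher in ependymal-like than in endothelial-like cells. Each sequence runs from 250 bases before to 50 bases after the start that RefSeq gives on GRCm38.p6. It is written 5′ to 3′ on the strand of the gene, and capitals mark each match, on either strand, to TGGGAA (the core letters of RBPJ sites), GTTGCC (part of an RFX site), AGGTCA (part of a nuclear receptor site) or GGGCGG (a GC box). No 2 matches overlapped in these promoters.
Efnb2, chr8:8661193-8661492, minus strand: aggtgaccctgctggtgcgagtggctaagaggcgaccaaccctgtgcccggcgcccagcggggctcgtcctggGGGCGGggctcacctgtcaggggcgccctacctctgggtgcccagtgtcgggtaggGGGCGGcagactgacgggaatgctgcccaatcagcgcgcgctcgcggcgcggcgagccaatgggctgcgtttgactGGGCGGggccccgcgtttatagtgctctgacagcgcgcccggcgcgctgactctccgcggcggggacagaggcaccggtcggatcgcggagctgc
Ephb4, chr5:137349859-137350158, plus strand: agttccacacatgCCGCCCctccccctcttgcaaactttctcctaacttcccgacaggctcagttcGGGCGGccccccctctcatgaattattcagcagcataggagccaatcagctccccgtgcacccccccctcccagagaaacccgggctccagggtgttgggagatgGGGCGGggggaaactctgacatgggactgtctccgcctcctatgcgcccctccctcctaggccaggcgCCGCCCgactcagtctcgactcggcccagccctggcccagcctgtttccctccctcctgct
Efna5, chr17:62881268-62881567, minus strand: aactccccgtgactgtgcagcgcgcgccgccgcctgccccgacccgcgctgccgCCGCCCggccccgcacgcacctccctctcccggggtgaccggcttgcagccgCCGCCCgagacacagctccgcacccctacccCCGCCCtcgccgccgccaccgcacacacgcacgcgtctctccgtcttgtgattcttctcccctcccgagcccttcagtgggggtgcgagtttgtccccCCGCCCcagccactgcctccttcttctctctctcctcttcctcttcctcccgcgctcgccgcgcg
Epha5, chr5:84417333-84417632, minus strand: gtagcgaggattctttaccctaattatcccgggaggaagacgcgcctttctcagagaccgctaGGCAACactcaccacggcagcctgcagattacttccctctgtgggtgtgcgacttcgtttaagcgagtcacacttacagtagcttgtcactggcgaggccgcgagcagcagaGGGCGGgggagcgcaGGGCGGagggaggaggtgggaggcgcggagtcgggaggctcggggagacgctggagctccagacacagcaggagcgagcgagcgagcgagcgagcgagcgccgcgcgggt

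Efnb2 holds 3 GC boxes, Ephb4 holds 4 and Efna5 holds 4. Epha5 holds 2 GC boxes and 1 match to GTTGCC, whose first letter is base 64. Of 32851 RefSeq promoters of this length, 35.7% hold a GC box, 12.5% hold GTTGCC, 25.6% hold TGGGAA and 16.3% hold AGGTCA, so these letters are common, and a match is not a site of binding. In the GENCODE vM21 annotation of GRCm38, the whole genes lie at chr8:8617434-8661242 for Efnb2, chr5:137350109-137378669 for Ephb4, chr17:62604184-62881317 for Efna5 and chr5:84054761-84417382 for Epha5. Efnb2 overlaps 3 annotated genes on its own strand (E230020D15Rik, Gm45074 and Gm45073), and reads in the overlap cannot be assigned with certainty. Epha4 overlaps 1 such gene (Mir6352) and Ephb1 overlaps 3 (Gm37562, Gm29388 and Mir7243), while the other members overlap none.

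There were 25411 non-traced and 4825 traced cells, and their median depths were 7218 and 8566 unique molecular identifiers (UMIs, each standing for 1 captured RNA molecule). Of 30236 cell barcodes in all, 42 occurred in both libraries. Cells were clustered without the ephrin and Eph genes and named from marker lists, "-like" standing for a name drawn from markers alone. In the non-traced library 3698 cells were arterial-like, 12953 capillary-like and 2617 venous-like, and together with 507 cells of no called zone they made 19775 endothelial-like cells. Another 96 cells were pericyte-like and 53 smooth muscle-like, which together are the 149 mural-like cells. In over 50% of their cells, the pericyte-like group held 7 of 7 pericyte markers and the smooth muscle-like group 5 of 6 smooth muscle markers, although the genes that set the pericyte-like sub-clusters apart from other mural cells (Spp1, Fbln1 and Dkk2 among them) were on neither list. A further 2156 cells with mural genes also carried endothelial transcripts (15456 CPM, counts per 1000000, of 8 endothelial markers, against 20541 in endothelial-like cells) and were kept out of the mural-like group. The non-traced library had 1131 ependymal-like cells and the traced library 4757, and 10 of 10 ependymal markers were detected in over 50% of the cells of each. The ependymal sub-clusters were named by a leading gene: Pvalb-led (133 non-traced and 801 traced cells) and Mki67-led (44 traced cells). Those called the other ependymal-like cells below were 640 and 3708.

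A level below is the UMIs of a gene per 1000000 UMIs (CPM) summed over the cells of a group, followed in brackets by its exact Poisson 95% interval, which covers counting error only and not the spread between animals. Levels of 1 gene are compared between groups, never levels of different genes, because 3′ counts do not rank genes. A difference between groups is that of log2(CPM + 1). A gene is called past 2-fold when that difference is at least 1 in size, the higher group reaches 10 CPM and the intervals do not overlap.

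**Figure D1:**
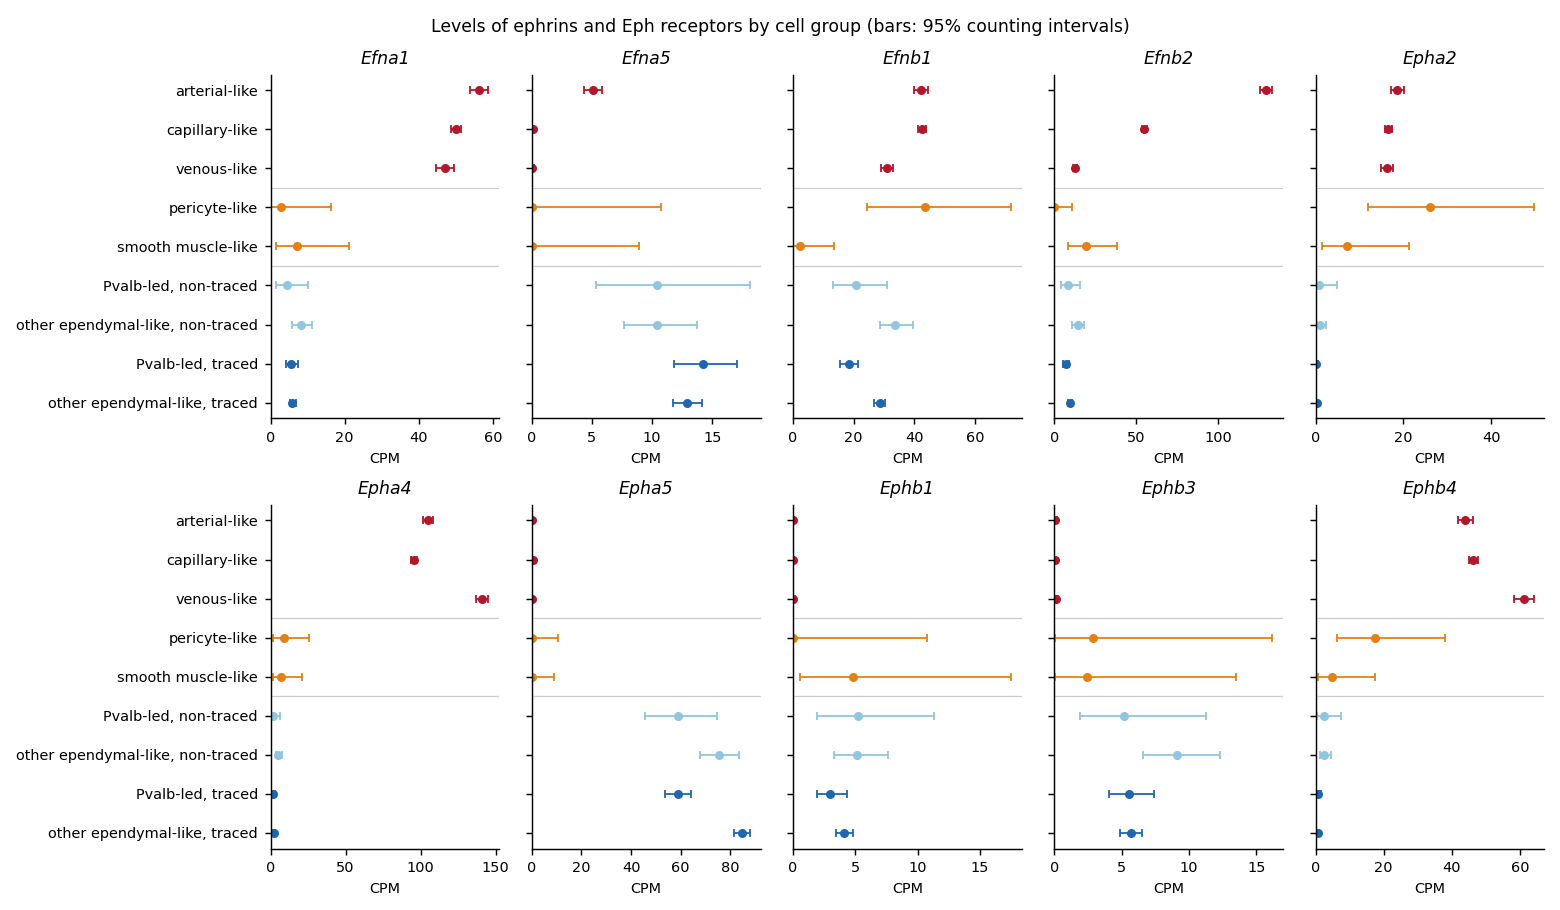
Level in CPM (horizontal axis, linear, from 0) of each of the 10 members in 9 cell groups, with points for the level and bars for the 95% counting interval; endothelial groups are red, mural groups orange, and ependymal groups light blue (non-traced) or dark blue (traced). Efnb2 spans 129 CPM in arterial-like to 12.5 CPM in venous-like cells, and Epha5, Ephb1 and Ephb3 stand near 0 in all 3 endothelial groups.

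Among the ephrin-A ligands, Efna1, an endothelial ephrin that inflammatory signals are known to induce, was measured at 56.2 CPM [53.8 to 58.8] in arterial-like, 50.1 CPM [48.7 to 51.5] in capillary-like and 46.9 CPM [44.5 to 49.5] in venous-like cells. Its 3 endothelial levels thus lay close together, with capillary-like and venous-like intervals overlapping. It was lower in ependymal-like cells, with 7.72 CPM [5.96 to 9.85] in the non-traced library and 5.78 CPM [5.11 to 6.52] in the traced one. Pericyte-like cells gave 1 UMI and smooth muscle-like cells 3 UMIs of Efna1.

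Efna5, a ligand of EphA receptors known from axon mapping, was read from 177 UMIs in arterial-like cells, 5.06 CPM [4.35 to 5.87]. Capillary-like cells held 11 UMIs in 12953 cells, 0.107 CPM [0.0533 to 0.191], and venous-like cells held 1 UMI in 2617 cells. The arterial-like level was 47.5 times the capillary-like one [25.9 to 96.8] and 153 times the venous-like one [27.1 to 6070]. Efna5 stayed under 10 CPM in each of the 3 endothelial zones and so could not be called past 2-fold between them. Ependymal-like cells had higher levels than the arterial-like cells as a whole, 7.72 CPM [5.96 to 9.85] in the non-traced and 12.5 CPM [11.5 to 13.6] in the traced library. An arterial-like sub-cluster described below had 15.5 CPM [13.1 to 18.3]. No UMI of Efna5 was found in the 149 mural-like cells, where 3 counts would be 3.96 CPM.

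Among the ephrin-B ligands, Efnb1, a membrane-spanning ligand whose gene lies on the X chromosome, was found in endothelial, pericyte and ependymal cells alike. It stood at 42.1 CPM [40.0 to 44.3] in arterial-like, 42.4 CPM [41.2 to 43.7] in capillary-like and 30.9 CPM [29.0 to 33.0] in venous-like cells. Ependymal-like cells had 33.0 CPM [29.3 to 37.2] in the non-traced and 26.7 CPM [25.2 to 28.2] in the traced library, so venous-like and non-traced ependymal-like levels did not differ beyond counting error. In mural cells it was unequal: pericyte-like cells had 15 UMIs, 43.6 CPM [24.4 to 71.9], and smooth muscle-like cells had 1 UMI.

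Efnb2, the artery-associated ligand, was ordered arterial-like, capillary-like, venous-like, with no neighbors in that order overlapping. Its level was 129 CPM [125 to 133] in arterial-like, 54.9 CPM [53.5 to 56.4] in capillary-like and 12.5 CPM [11.2 to 13.8] in venous-like cells. The 47 endothelial-like cells of the traced library had 91.6 CPM [65.8 to 124], between the arterial-like and capillary-like levels; these cells also held 2798 CPM of 13 arterial markers, against 1088 CPM in non-traced endothelial-like cells. Smooth muscle-like cells had 8 UMIs, 19.3 CPM [8.35 to 38.1], and pericyte-like cells had no UMI in 96 cells, where 3 counts would be 8.71 CPM. Ependymal-like cells had 11.1 CPM [8.92 to 13.5] in the non-traced and 9.01 CPM [8.16 to 9.92] in the traced library, so the venous-like and non-traced ependymal-like intervals overlapped.

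Of the EphA receptors, Epha2, a receptor of ephrin-A1 in endothelium and epithelium, stood at 16.7 CPM [16.1 to 17.4] in endothelial-like cells as a whole. Its level was 18.6 CPM [17.2 to 20.1] in arterial-like, 16.6 CPM [15.8 to 17.4] in capillary-like and 16.2 CPM [14.8 to 17.7] in venous-like cells, and each of these 3 intervals overlapped the others. Pericyte-like cells had 9 UMIs, 26.1 CPM [12.0 to 49.6], which was 1.56 times the endothelial-like level [0.714 to 2.97] and thus not distinguishable from it. Ependymal-like cells were near 0, with 6 UMIs in 1131 non-traced and 11 UMIs in 4757 traced cells.

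Epha4, a receptor that binds ephrins of both classes, was highest in venous-like cells, at 141 CPM [137 to 145], against 105 CPM [101 to 108] in arterial-like and 95.5 CPM [93.6 to 97.4] in capillary-like cells. The 3 intervals were apart. Outside endothelium it had 8.71 CPM [1.80 to 25.5] in pericyte-like, 7.26 CPM (3 UMIs) in smooth muscle-like, 4.16 CPM [2.90 to 5.78] in non-traced ependymal-like and 2.09 CPM [1.70 to 2.56] in traced ependymal-like cells.

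Epha5, a receptor of ephrin-A ligands best known from neurons, was an ependymal transcript in these libraries. Its ependymal-like level was 55.0 CPM [50.1 to 60.3] in the non-traced library and 76.9 CPM [74.4 to 79.5] in the traced one. Endothelial-like cells held 50 UMIs in 19775 cells, 0.291 CPM [0.216 to 0.384], and the 149 mural-like cells held none. With each cell thinned to 1000 UMIs, a UMI of Epha5 was left in 60 of the 1131 non-traced ependymal-like cells, 5.31% [4.07 to 6.78, exact Clopper-Pearson], and in 5 of the 19775 endothelial-like cells, 0.0253% [0.00821 to 0.0590]. Without thinning these shares were 28.6% and 0.217%, at median depths of 7044 and 6852 UMIs.

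The EphB receptors Ephb1 and Ephb3, both receptors of ephrin-B ligands, were also higher in ependymal-like than in endothelial-like cells, at low levels. Ependymal-like cells had 4.75 CPM of Ephb1 [3.40 to 6.47] in the non-traced library and 3.84 CPM [3.29 to 4.45] in the traced one, against 4 UMIs in 19775 endothelial-like cells. They had 7.01 CPM of Ephb3 [5.34 to 9.04] and 5.54 CPM [4.88 to 6.27] in the same order, against 10 UMIs in the endothelial-like cells. In mural-like cells each had 2 UMIs, 2.64 CPM [0.320 to 9.53], an interval that overlaps the ependymal-like ones, so mural-like and ependymal-like levels of both could not be told apart at this depth.

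Ephb4, the vein-associated receptor of ephrin-B2, was at 61.1 CPM [58.4 to 64.0] in venous-like, 46.3 CPM [45.0 to 47.6] in capillary-like and 43.9 CPM [41.7 to 46.1] in arterial-like cells, the last 2 overlapping. Like Efnb2 it was found in all 3 endothelial zones, with a smaller span between them. Pericyte-like cells had 6 UMIs, 17.4 CPM [6.40 to 37.9], and smooth muscle-like cells 2 UMIs. Ependymal-like cells had 24 UMIs in the non-traced and 29 UMIs in the traced library, 2.85 CPM [1.83 to 4.24] and 0.633 CPM [0.424 to 0.909].

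Between arterial-like and venous-like cells, 1 member was past 2-fold in the arterial direction, Efnb2, where 3.79% of the 8550 genes tested were. In the venous direction 0 members were past 2-fold, where 3.1% of all genes were. Of the 10 members, 6 reached the minimum level in either group. The difference of Efnb2 was 3.27 on the log2(CPM + 1) scale, and the ratio of its levels was 10.4 [9.33 to 11.5]. Ephb4 was 1.39 times higher in venous-like than in arterial-like cells [1.30 to 1.49] and Epha4 1.34 times higher [1.29 to 1.41], both under 2-fold but with intervals that excluded equal levels. Efnb1 was 1.36 times higher in arterial-like cells [1.26 to 1.48]. The median difference was 0.09 on the log2 scale over all 10 members and 0.22 over those 6, beside 0.05 over all genes tested. Venous-like cells were deeper, with a median of 10334 UMIs against 7688.5 in arterial-like cells, and 1 UMI therefore stands for a smaller share of a venous-like cell.

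In the same cells thinned to 1000 UMIs, Efnb2 was seen in 12.2% of arterial-like [11.2 to 13.4], 4.74% of capillary-like [4.38 to 5.12] and 0.726% of venous-like cells [0.438 to 1.13]. Unthinned shares were 59.7%, 27.6% and 9.82%. Ephb4 was seen in 4.16% of arterial-like [3.54 to 4.86] and 5.39% of venous-like cells [4.55 to 6.32] after thinning, and these intervals overlapped. Unthinned shares of Ephb4 were 31.4% and 45.1%. No UMI of either gene was left after thinning in the 96 pericyte-like cells, which at that depth allows a share of cells with a UMI of up to 3.13% by 3 counts and 3.77% by the exact interval. Unthinned, 6.25% of these cells held a UMI of Ephb4 and none held one of Efnb2, so the thinned value sets no limit on cells that express Ephb4.

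When the endothelial-like cells were ordered by a score of arterial minus venous markers, without ephrin or Eph genes, and divided into 10 equal bins, Efnb2 increased at every step, from 10.9 CPM in bin 1 at the venous end to 139 CPM in bin 10 at the arterial end. Efna5 sat at the arterial end, with 8.81 CPM in bin 10 and at most 0.756 CPM in any other. Ephb4 was at 65.8 CPM in bin 1 and 40.7 CPM in bin 10, and most of that decline lay within the first 3 bins (46.6 CPM in bin 3). Epha4 had 140 CPM in bin 1 and between 87.1 and 111 CPM in the other 9. Efnb1 was highest between the ends, with 28.2 CPM at the venous end, 52.7 CPM in bin 8 and 39.9 CPM at the arterial end. The bins come from 1 library and differ in depth, with median UMIs per cell from 5820 in bin 6 to 8957.5 in bin 1, and they are a description with no test.

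**Figure D2:**
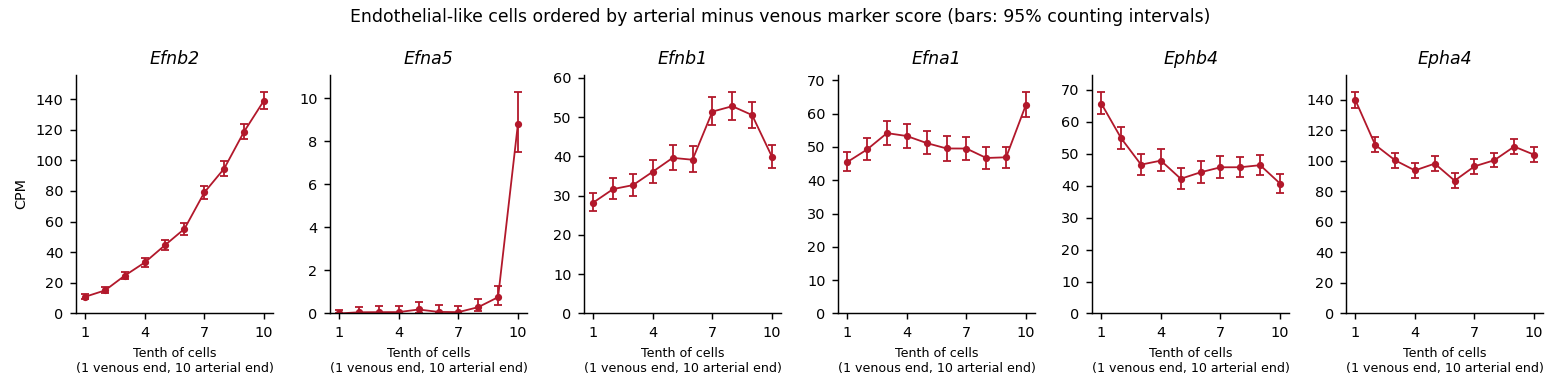
Level in CPM (vertical axes, linear, from 0) of 6 members in 10 equal bins of the endothelial-like cells of the non-traced library ordered by arterial minus venous marker score (horizontal axis, 1 the venous end and 10 the arterial end), with bars for 95% counting intervals. Efnb2 climbs from 10.9 to 139 CPM, Efna5 appears in bin 10 at 8.81 CPM, and Ephb4 and Epha4 are highest in bin 1.

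Sub-clusters within the zones differed as well. The arterial-like cells fell into a sub-cluster of 930 cells led by Fbln5, Cytl1 and Pi16, genes of larger arteries, and one of 2768 cells led by Igfbp3 and Gkn3. Efna5 had 15.5 CPM [13.1 to 18.3] in the first and 1.32 CPM [0.915 to 1.85] in the second, while Efnb2 was alike in both, at 128 CPM [121 to 136] and 129 CPM [125 to 134]. Among venous-like cells, 119 were led by Lrg1, Ackr1 and Selp, all on the venous marker list. These had 90.6 CPM of Ephb4 [75.0 to 109] and 33.3 CPM of Efnb2 [24.1 to 44.9], and the other 2498 had 59.8 CPM [57.0 to 62.7] and 11.5 CPM [10.3 to 12.8]. A capillary-like sub-cluster of 2765 cells had the highest Efnb1 of the endothelial sub-clusters, 66.6 CPM [63.2 to 70.0]. It was led by 1810011O10Rik and Ccdc184, with the stress genes Egr1 and Fosl2 further down its leading genes. Another capillary-like sub-cluster of 2582 cells, led by the stress genes Hspa1b and Hspa1a, had 29.6 CPM of Efnb1 [27.0 to 32.3]. These sub-clusters were cut from the same cells, so their levels are descriptions.

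Between mural-like and endothelial-like cells, 0 members were past 2-fold in the mural direction, where 17.1% of 9610 genes were. In the endothelial direction 4 members were past 2-fold (Efna1, Efnb2, Epha4 and Ephb4), where 16.6% of genes were. Efna1 had 5.28 CPM [1.44 to 13.5] in mural-like cells, Efnb2 had 10.6 CPM [4.56 to 20.8], Epha4 had 7.92 CPM [2.91 to 17.2] and Ephb4 had 10.6 CPM [4.56 to 20.8]. The differences were -3.04, -2.44, -3.58 and -2.10 on the log2 scale in that order. The median difference was -0.98 over all 10 members and -2.27 over the 6 that reached the minimum level, beside -0.0031 over all genes tested. Epha2 differed by -0.07 on that scale, from 12 and 2873 UMIs, and its 2 intervals overlapped. Adding the 2156 cells that carried both kinds of markers left 0 members past 2-fold in the endothelial direction.

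Pericyte-like and smooth muscle-like cells were compared after the levels had been seen. Of the members, only Efnb1 was past 2-fold, higher in pericyte-like cells, at a rate of 7.19% among 9266 genes, and 0 members were past 2-fold in the smooth muscle direction, where 5.31% of genes were. The ratio of the Efnb1 levels was 18.0 with an interval from 2.77 to 758, resting on 15 UMIs against 1 UMI. Efnb2 ran the other way, with no UMI in pericyte-like cells and 8 in smooth muscle-like cells, but the intervals of 0 to 10.7 CPM and 8.35 to 38.1 CPM overlapped. Median depth differed between these groups, at 3466.5 and 7344 UMIs.

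Between non-traced ependymal-like and endothelial-like cells of the same library, 1 member was past 2-fold in the ependymal direction, Epha5, where 27.1% of 10492 genes were. In the endothelial direction 5 members were past 2-fold (Efna1, Efnb2, Epha2, Epha4 and Ephb4), where 19.6% of genes were. The difference of Epha5 was 5.44 on the log2 scale [5.21 to 5.65]. Efna5, Ephb1 and Ephb3 differed by 2.05 [1.62 to 2.48], 2.49 [2.05 to 2.89] and 2.92 [2.52 to 3.29] in the same direction but did not reach 10 CPM in either group. Efnb1 was alone in lying near equality, at -0.27 [-0.47 to -0.07]. The median was -1.32 over all 10 members and -2.57 over the 7 that reached the minimum level, beside 0.08 over all genes tested.

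Droplets also catch RNA that was free in the suspension, and levels of 8 endothelial markers are set beside the members in ependymal-like cells. Cells were named ependymal-like only in clusters where the endothelial class, called from these 8 markers, was not found. Endothelial-like clusters were likewise named only where the ependymal class was not found. The marker percents are thus limited by the naming and give no full scale of free RNA. In non-traced ependymal-like cells those markers stood at 1.13% to 5.82% of their endothelial-like level, with a median of 1.58%. Kdr alone set the upper end, and the other 7 markers stood at 1.13% to 2.19%. Ephb4, at 5.88% [3.76 to 8.74], lay above those 7 and overlapped Kdr. Epha4, at 3.94% [2.75 to 5.48], overlapped Kdr and, at its lower end, the interval of Tek, at 2.19% [1.67 to 2.81]. The interval of Epha2, at 4.26% [1.56 to 9.28], reached the 7 as well. Efna1 at 15.2% [11.7 to 19.4], Efnb2 at 18.0% [14.5 to 22.0] and Efnb1 at 82.7% [73.3 to 93.0] lay above all 8. Mural-like cells were kept only if these same 8 markers made up under 10% of their endothelial-like median share. Low marker percents in the mural groups thus follow from that limit and give no scale of free RNA there. In pericyte-like cells the markers stood at 2.39% to 6.13%, while Ephb4 was at 35.9% [13.2 to 78.1], Efnb1 at 109% [61.0 to 180] and Epha2 at 156% [71.4 to 297]. In smooth muscle-like cells the markers stood at 1.45% to 3.33%, Efnb2 was at 31.4% [13.6 to 61.9] and Epha2, from 3 UMIs, at 43.4% [8.94 to 127]. In the other direction, 10 ependymal markers stood at a median of 0.116% of their ependymal-like level in endothelial-like cells (0.0717% to 2.34%), the upper end being that of Tppp3 alone and the other 9 reaching at most 0.203%. Epha5 at 0.529% [0.393 to 0.698] and Ephb3 at 0.830% [0.398 to 1.53] lay above those 9 and below Tppp3, and the interval of Ephb1, at 0.490% [0.134 to 1.25], reached the 9.

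**Figure D3:**
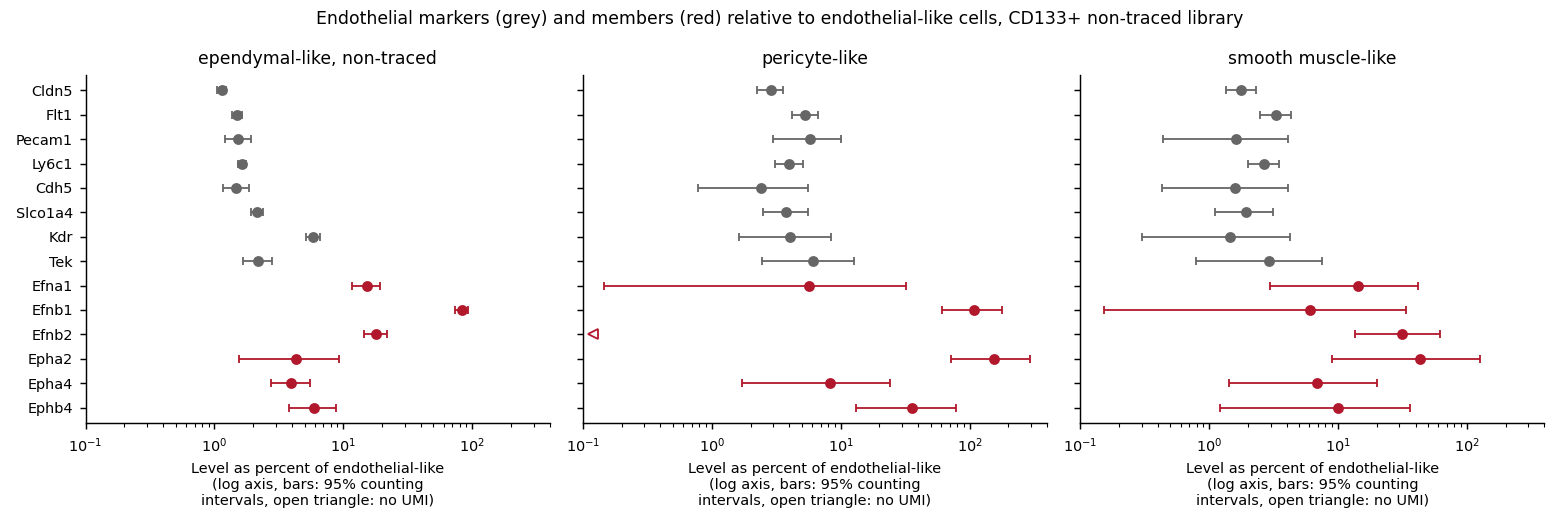
Level in a cell group as a percent of that in non-traced endothelial-like cells (horizontal axes, logarithmic) for 8 endothelial markers in gray and 6 members in red, with bars for 95% counting intervals and an open triangle for a gene without a UMI. Efnb1 stands at 82.7% in ependymal-like and 109% in pericyte-like cells, against at most 6.13% for any marker in the 3 panels. Mural cells were kept only with few UMIs of these markers, which limits the marker percents in the pericyte-like and smooth muscle-like panels. Ependymal-like clusters were named only where the endothelial class was not found, which limits the marker percents in that panel as well.

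Between traced and non-traced ependymal-like cells, the comparison that the sort was made for, 0 members were past 2-fold in the traced direction, where 0.816% of 9554 genes were, and 0 in the non-traced direction, where 1.26% of genes were. Epha5 was 1.40 times higher in traced cells [1.27 to 1.54] and Efna5 1.62 times higher [1.25 to 2.13]. The makeup of the ependymal-like cells differed between the libraries, the other ependymal-like cells being 640 of 1131 non-traced and 3708 of 4757 traced cells. Within these cells alone, the ratio was 1.12 [1.01 to 1.26] for Epha5 and 1.24 [0.919 to 1.70] for Efna5. Efnb2 in those same cells was 1.5 times higher in the non-traced library [1.14 to 1.96]. Ephb4 was 4.51 times higher in non-traced ependymal-like cells [2.51 to 8.02] and Epha4 1.99 times higher [1.31 to 2.95], from 24 and 35 UMIs. Beside these values, 8 endothelial markers summed to 323 CPM in ependymal-like cells of the non-traced library and 25.2 CPM in those of the traced library. When cells with 2 or more markers of another class were left out, 426 non-traced and 4738 traced cells remained, and the same markers summed to 130 CPM and 24.3 CPM. The differences, traced minus non-traced on the log2 scale, were then -1.58 for Ephb4 [-2.48 to -0.62] and -1.03 for Epha4 [-1.86 to -0.16], against -1.24 and -0.74 with all cells, from 11 and 15 non-traced UMIs. Non-traced levels were then 3.89 CPM of Ephb4 [1.94 to 6.96], against 2.85 CPM [1.83 to 4.24] with all cells. For Epha4 they were 5.30 CPM [2.97 to 8.75] and 4.16 CPM [2.90 to 5.78], so the intervals of both genes overlapped. The fall of the endothelial markers follows from the filter, which removes cells by such markers. Whether endothelial RNA adds to the levels of Ephb4 and Epha4 was not tested.

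Pvalb-led cells, whose leading genes Sntn, Sncg and Pvalb set them apart, were compared with the other ependymal-like cells after the levels had been seen, and the sub-clusters were drawn without ephrin and Eph genes. Past 2-fold, 0 members were higher and 0 lower in the Pvalb-led cells of the non-traced library, where 1.31% and 1.01% of 9643 genes were, and again 0 and 0 in the traced library, where 0.979% and 0.511% of 9402 genes were. Efnb1 was lower in Pvalb-led cells of both libraries, with 20.7 CPM [13.3 to 30.8] against 33.8 CPM [28.7 to 39.4] non-traced and 18.4 CPM [15.6 to 21.5] against 28.6 CPM [26.8 to 30.4] traced. The traced intervals were apart and the non-traced ones overlapped, although the ratio of the other cells to the Pvalb-led cells was 1.63 [1.06 to 2.62] non-traced and 1.55 [1.31 to 1.85] traced. Epha5 had 75.4 CPM [67.8 to 83.7] in the other non-traced cells and 84.7 CPM [81.7 to 87.8] in the other traced cells, and in the traced library these cells were 1.44 times higher than the Pvalb-led cells [1.31 to 1.59]. Efna5 had 10.4 CPM [7.70 to 13.8] in the other non-traced cells and 12.9 CPM [11.7 to 14.1] in the other traced cells, and the intervals of the Pvalb-led cells overlapped these in both libraries. In the 44 Mki67-led cells Efnb1 had 49.6 CPM [33.9 to 70.0] and Efnb2 had 23.2 CPM [13.0 to 38.3], which were 1.73 [1.18 to 2.47] and 2.45 [1.36 to 4.10] times their levels in the other traced cells.

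**Figure D4:**
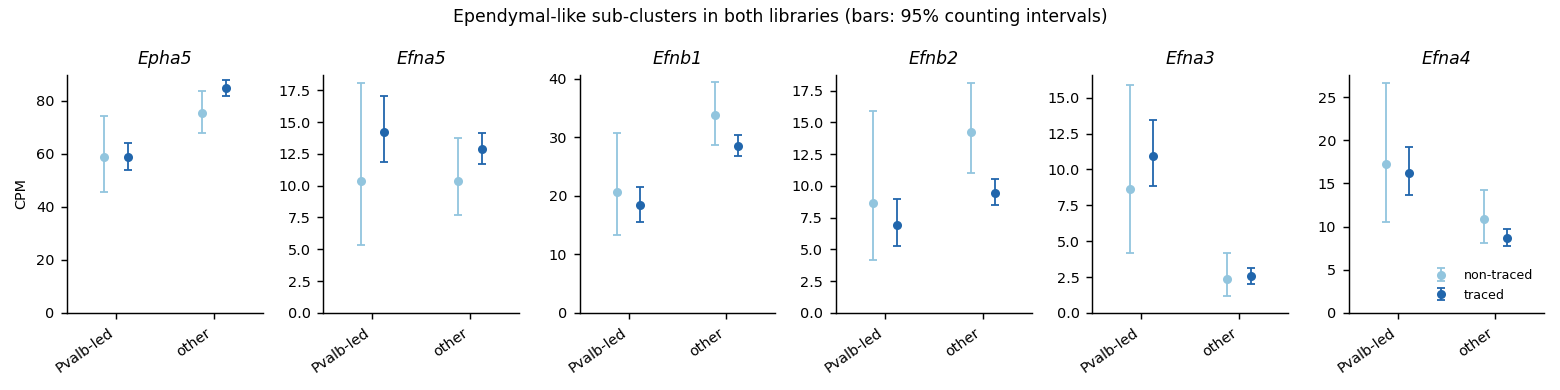
Level in CPM (vertical axes, linear, from 0) of 4 members and 2 other family genes in the Pvalb-led and the other ependymal-like cells, light blue for the non-traced and dark blue for the traced library, with bars for 95% counting intervals. Efnb1 is lower in Pvalb-led cells of both libraries (20.7 and 18.4 CPM), and Efna3 is higher there (8.64 and 11.0 CPM).

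The other family genes found in the tables were 10, and 3 of them (Efna3, Efna4 and Ephb6) reached 10 CPM in a group described here. Efna3, an ephrin-A ligand, had 8.64 CPM [4.14 to 15.9] in non-traced and 11.0 CPM [8.85 to 13.4] in traced Pvalb-led cells, 3.70 [1.41 to 9.59] and 4.31 [3.19 to 5.84] times the other cells. Efna4, also an ephrin-A ligand, was past 2-fold higher in non-traced ependymal-like than in endothelial-like cells, at 11.9 and 2.16 CPM. Ephb6, a receptor without kinase activity, reached 10.8 CPM only in the Mki67-led cells, from 7 UMIs.

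Of the 22 listed binding partners and signaling genes of the family, 2 were past 2-fold higher (Fyn and Rgs3) and 3 lower (Itsn1, Src and Tiam1) in arterial-like than in venous-like cells, where 3.79% and 3.1% of all genes tested were and 17 of the 22 reached the minimum level. Tiam1, an activator of the GTPase Rac, had 62.7 CPM in arterial-like and 152 CPM in venous-like cells. In ependymal-like against endothelial-like cells 5 of 19 were higher and 6 lower, where 27.1% and 19.6% of all genes were, with Ngef, which encodes ephexin, an exchange factor that EphA receptors bind, at 49.8 CPM against 0.111 CPM. Ptpn13, a phosphatase with PDZ domains that ephrin-B tails bind, was higher there as well, at 37.2 against 0.285 CPM, and Tiam1 was lower, at 5.94 against 155 CPM. In mural-like against endothelial-like cells 4 of 17 were higher and 7 lower, where 17.1% and 16.6% of all genes were, led by Tiam1 (5.28 against 155 CPM), Ptpn13 (19.8 against 0.285 CPM) and Anks1 (11.9 against 67.0 CPM). Between traced and non-traced ependymal-like cells 0 were higher and 0 lower, the largest differences being those of Rgs3, Ptpn13 and Pick1. In pericyte-like against smooth muscle-like cells 3 of 17 were higher (Adam10, Fyn and Rgs3) and 0 lower, where 7.19% and 5.31% of all genes were. In neither library was any of the 22 past 2-fold between Pvalb-led and the other ependymal-like cells.

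The genes whose levels ran most like a member's over 9 cell groups, among 6273 genes of at least 50 CPM in any group, are given as a description, since the groups share libraries and depth. Being the top 3 of 6273 genes over so few groups, they have high r partly by selection. For Efnb2 they were Kank4 (Pearson's r of log2 levels 0.990), Fbxo7 (0.949) and Pcnx (0.948). For Ephb4 they were Hdac7, Smagp and Slfn5 (0.998, 0.997 and 0.997), and for Epha4 Golm1, Spns2 and Fn1 (0.998, 0.994 and 0.994). Epha5 was closest to Igsf11, Zcchc12 and Rmst (0.9997 each), genes of ependymal-like cells here. Efna5, which was present in both arterial-like and ependymal-like cells, was closest to Prune2, Clu and Adgra1 (0.994, 0.985 and 0.984). For Efna1 they were Tes, Gpr146 and Bche (0.991, 0.988 and 0.985), for Efnb1 Sae1, Xpr1 and Sertad2 (0.980, 0.971 and 0.961), and for Epha2 Cbfa2t3, Itpripl2 and Mndal (0.995, 0.992 and 0.992). The low receptors Ephb1 (D10Jhu81e, Dtna and Smim5) and Ephb3 (2010001A14Rik, Arvcf and Cox6b2) each had r of 0.99 with their 3 genes.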

How the data were processed

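The authors made the deposited values: whole-number UMI counts per gene and cell, from Chromium 3′ libraries run through Cell Ranger 3.0.2 with STAR 2.5.1b on mm10 plus the reporter sequence, kept for cells with at least 50 genes and at most 10% mitochondrial signal. The authors then integrated both libraries in Seurat, which was an alternative here.

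From these counts both libraries were clustered with scanpy 1.11.5 (2000 features without reporter, ephrin or Eph genes, 20 components, 20 neighbors, Leiden resolution 0.8). Clusters were named from marker lists separately for the cells of each library, and endothelial, mural and ependymal cells were clustered again. A sub-cluster of ependymal cells in each library is not reported here. A mural-like cell had under 10% of the endothelial-like median share of endothelial marker UMIs (under 0.207% of its UMIs). Of 2360 cells, 107 lay within 2 times that limit. No doublets were removed in the main analysis. Scrublet called 2209 of 25411 non-traced and 0 of 4825 traced cells, the latter at a set rate of 3.86%. Leaving its calls out thus removed no traced cell, and why it called none there was not tested. Clusters mixing ependymal and endothelial or other classes (905 cells) and a cluster of no class (17 cells) were left out. Sub-clusters that were led by genes of another class or could not be named were left out as well. These were endothelial ones of 1118 and 67 cells, mural ones of 31 and 24 cells, and non-traced ependymal ones of 40 and 11 cells.

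CPM, intervals and calls were as defined above, with a pseudocount of 1 CPM, and the calling code was tested on simulated counts. Alternatives covered integration with Seurat 5.3.0, resolution, features, cell filters, doublets, scaling, pseudocount and minimum level. All 10 members are named whatever their value, other family genes if they reach 10 CPM, signaling genes by call or by the 3 largest differences, and Tiam1's zone values were chosen after its values were seen. Members and lists were chosen with earlier results of these data known. Sequences came from RefSeq, where 10 of 10 members had a promoter. Overlapping-gene checks used GENCODE vM21.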

Additional observations from a re-analysis of the deposited data

How the results depend on the processing

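Efnb2 was past 2-fold in the arterial direction under 13 of 13 alternatives, with a difference between 2.94 and 3.56 on the log2 scale. Of 172 recomputed counts of members past 2-fold, 162 equaled the main count or lay within 1.5 times of it. With no minimum level, the count was 2 instead of 1 in the arterial direction (Efna5 added), 2 instead of 0 in the mural direction against endothelial-like cells (Ephb1 and Ephb3), 4 instead of 1 in the ependymal direction (Efna5, Ephb1 and Ephb3 added) and 1 instead of 0 in the non-traced direction against traced ependymal-like cells (Ephb4). At resolution 0.4 it was 2 instead of 1 in the ependymal direction (Efna5 added), and at resolutions 0.4 and 1.2 it was 1 instead of 0 in the smooth muscle direction against pericyte-like cells (Efnb2). The pericyte-like comparison and the changes that follow were chosen after seeing the data. With ephrin and Eph genes allowed among the clustering features it was 1 instead of 0 lower in non-traced Pvalb-led cells (Efnb1). It was 0 instead of 4 in the endothelial direction with the 2156 mural cells carrying endothelial markers added, and 2 instead of 1 in the ependymal direction (Efna5 added) with the other ependymal-like cells alone. With no minimum level the change follows from the setting. The 2156 added mural cells held 26489788 UMIs, against 757789 in the mural-like cells, so the enlarged group mostly shows the levels of the added cells. For the other changes the cause was not tested. Of 860 recomputed differences of members, 55 lay outside the counting interval of the main value, 29 of them larger and 23 smaller with the same sign and 3 with the other sign, none of a member called past 2-fold.

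The pericyte-like and smooth muscle-like comparison under the stricter cell filters left fewer than 20 cells in a group and gave no value. Median-of-ratios scaling moved all genes by 0.11 on the log2 scale in the pericyte-like comparison and by less than 0.1 in the others. No paired analysis was possible because each fraction has 1 library and the labels carry no replicate numbers. Levels under about 10 CPM in the 149 mural-like cells rest on fewer than 10 UMIs, so presence there is limited by depth.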
